A study of Mus musculus with 12 samples.

Results

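The Runx family (Runx1, Runx2 and Runx3) and Cbfb, which encodes its shared partner, were followed through ATAC-seq of mouse blood stem and progenitor cells, an assay in which the Tn5 transposase cuts open DNA so that read counts measure accessibility. Their regions were those of the deposited table (build GRCm38) that overlapped the RefSeq body of one of the 4 genes, or that lay within 100 kb of it with no other protein-coding gene body nearer. This gave 245 of the 188262 regions, 113 at Runx1 (chr16:92601466-92826074), 78 at Runx2 (chr17:44495987-44814797), 47 at Runx3 (chr4:135120645-135177990) and 7 at Cbfb (chr8:105170674-105217989), and all 245 passed the filter on low counts. The 12 libraries formed 4 groups of 3, multipotent progenitors (MPP) and long-term haematopoietic stem cells (LT-HSC) from Phf6 knockout (KO) and wild-type (WT) male mice. KO mice were Phf6-/Y Rosa26+/Cre-ERT2, with Cre activated by tamoxifen, and WT mice were Phf6f/Y Rosa26+/+, with a floxed Phf6 gene and no Cre. Per the labels, 20000 LT-HSC were sorted from individual mice 8 weeks after tamoxifen. The labels do not say how MPP were obtained. Cre-ERT2 was present in every KO library and in no WT library, so its effect and that of Phf6 loss cannot be told apart.

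RUNX proteins are transcription factors that bind DNA through the Runt domain. CBFB does not bind DNA itself but joins each RUNX protein and strengthens its binding. RUNX1 is needed for the first blood stem cells to form and is often mutated in leukaemia, RUNX2 is best known as a master regulator of bone formation, and RUNX3 acts in T and NK cells and in blood progenitors. Each Runx gene can be transcribed from a distal and from a proximal promoter, which give proteins with different first residues.

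Total counts in regions ran from 22665988 to 48547234 per library, and 186373 regions were tested. Levels are counts scaled to 1000000 per library (CPM) after TMM scaling. A region is called where edgeR's quasi-likelihood test gave a Benjamini-Hochberg adjusted p under 0.05 over all tested regions. The populations matched their labels: all 10 LT-HSC marker genes had a higher summed level, and all 8 MPP marker genes a lower one, in every LT-HSC library than in any MPP library. The share of counts at gene ends (regions reaching within 1 kb of one) was 41.0% to 41.4% in KO MPP, 39.2% to 41.0% in WT MPP, 39.2% to 39.6% in KO LT-HSC and 37.8% to 38.9% in WT LT-HSC. It thus moved with both population and genotype, and where a fit with this share as a covariate changed the call of a region named by the rule given with the methods, its value stands beside the result. The region at the start of Phf6, the targeted gene, held 29.7, 27.7 and 28.4 CPM in KO MPP against 32.4, 31.2 and 30.6 CPM in WT MPP, and 28.8, 27.0 and 26.5 CPM in KO LT-HSC against 25.4, 27.3 and 26.9 CPM in WT LT-HSC. It was not called in either population, and since the labels do not place the deleted stretch, it does not check the deletion. In bulk libraries, more cells with an open region and a more open region in each cell cannot be told apart.

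The distal starts of Runx1 and Runx3 and the start of Runx2 carry letters of the RUNX motif, shown here because they share one arrangement. A run of 18 bases with a pair of RUNX matches (TGTGGT, read on the other strand as ACCACA) was identical at the distal starts of Runx1 and Runx3 and at the RefSeq start of Runx2, per RefSeq sequence of build GRCm38.p6. Counted from the start position of the RefSeq promoter table it spans bases 27 to 44 at the Runx1 distal start and bases 22 to 39 at Runx2, where that start lies inside the gene body given above, and it ends 119 bases before the distal start of Runx3. The run was found in 4 of 32544 start windows of 300 bases (0.0123%), and the fourth belongs to Gm16225, whose start lies at the same Runx3 site. Below are 30 bases around it, 5′ to 3′ on the strand of each gene, with every match to TGTGGT or TGCGGT on either strand in capitals.
Runx1 distal start, chr16:92826025-92826054, minus strand: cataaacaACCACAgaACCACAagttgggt
Runx2 start, chr17:44814583-44814612, minus strand: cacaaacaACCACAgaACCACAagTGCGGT
Runx3 distal start, chr4:135120503-135120532, plus strand: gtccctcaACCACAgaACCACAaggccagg

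In the window from 250 bases before to 50 bases after each start, RUNX matches numbered 2 at the Runx1 distal start, 4 at the Runx2 start and 2 at the Runx3 distal start, and 0 at the proximal starts of Runx1 and Runx3 and at the Cbfb start. Of all windows, 22.4% held at least 1 match, 2.83% at least 2 and 0.292% at least 3. In the 250 bases before the start, G and C made up 45.6% at the Runx1 distal start, with 2 CpG, and 67.6% at its proximal start, with 27 CpG. At Runx3 they made up 65.2% with 8 CpG at the distal start and 78.8% with 38 CpG at the proximal start. The Runx2 start had 44.8% and 0 CpG and the Cbfb start 69.2% and 25 CpG, and the median of all windows was 52.4%. Of the other motifs searched on both strands in these 250 bases, that of GATA factors, spelled AGATAA (in 9.97% of windows), and that of AP-1, spelled TGANTCA (in 6.73%), were found at none of the 6 starts. That of ETS factors, spelled CCGGAA (in 12.1%), was found once, at the proximal start of Runx1. The distal and proximal starts compared below are printed in full, 250 bases before each start, with RUNX matches in capitals, which in these stretches are found at the distal start of Runx3 alone.
Runx1 distal start, chr16:92826075-92826324, minus strand: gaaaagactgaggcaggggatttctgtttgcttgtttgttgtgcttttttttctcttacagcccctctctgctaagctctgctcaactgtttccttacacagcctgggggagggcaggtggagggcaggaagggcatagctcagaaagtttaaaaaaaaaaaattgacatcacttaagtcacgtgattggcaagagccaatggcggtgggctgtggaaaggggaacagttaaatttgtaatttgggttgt
Runx1 proximal start, chr16:92697330-92697579, minus strand: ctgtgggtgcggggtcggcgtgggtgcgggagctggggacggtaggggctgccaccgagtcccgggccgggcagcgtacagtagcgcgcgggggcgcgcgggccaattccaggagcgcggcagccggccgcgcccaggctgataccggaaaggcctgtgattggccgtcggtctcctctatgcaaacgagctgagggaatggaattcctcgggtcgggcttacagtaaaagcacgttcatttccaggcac
Runx3 distal start, chr4:135120395-135120644, plus strand: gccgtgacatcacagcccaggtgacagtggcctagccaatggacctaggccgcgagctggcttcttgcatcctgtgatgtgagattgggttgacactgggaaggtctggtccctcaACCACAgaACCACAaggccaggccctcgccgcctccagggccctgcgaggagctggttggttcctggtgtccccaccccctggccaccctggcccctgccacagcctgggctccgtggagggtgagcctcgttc
Runx3 proximal start, chr4:135152295-135152544, plus strand: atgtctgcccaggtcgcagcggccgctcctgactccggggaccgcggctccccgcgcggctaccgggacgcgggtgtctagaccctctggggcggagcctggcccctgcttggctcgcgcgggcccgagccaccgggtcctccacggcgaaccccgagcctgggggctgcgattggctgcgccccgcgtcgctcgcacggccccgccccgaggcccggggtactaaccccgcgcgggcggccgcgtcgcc

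All 6 starts lay in accessible regions in every library. The distal start of Runx1 (chr16:92825805-92826391) held 37.5, 37.9 and 36.4 CPM in KO MPP, 32.3, 36.3 and 29.7 CPM in WT MPP, 27.7, 27.5 and 26.9 CPM in KO LT-HSC and 22.1, 26 and 18.6 CPM in WT LT-HSC. All MPP libraries were above all LT-HSC libraries, and in each population the lowest KO library was above the highest WT library, in MPP by a narrow margin. MPP exceeded LT-HSC in both genotypes (log2 fold change 0.45 ± 0.08 (SE) in KO, adjusted p = 2.51e-05, and 0.56 ± 0.08 in WT, adjusted p = 6.11e-07). With the gene-end covariate the KO call was lost (adjusted p = 0.172). KO exceeded WT in LT-HSC (0.30 ± 0.09, adjusted p = 0.0394), whereas the difference in MPP was not called (0.18 ± 0.08, adjusted p = 0.165). The LT-HSC call was lost without KO LT-HSC 1 (0.11), 2 (0.118) or 3 (0.0821) or WT LT-HSC 1 (0.105) or 3 (0.216), with total counts (0.0825), a loess offset (0.115) or the covariate (0.406), the values being adjusted p.

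The proximal start of Runx1 (chr16:92697201-92697642), 128.7 kb further along the gene, varied less. It held 24.5, 22.8 and 26.4 CPM in KO MPP, 19.5, 20.1 and 22.4 CPM in WT MPP, 21.7, 22.9 and 20.4 CPM in KO LT-HSC and 19.6, 19.6 and 22.4 CPM in WT LT-HSC. KO MPP libraries were all above WT MPP libraries, and the other compared groups overlapped. It was called higher in KO MPP than in WT MPP (0.25 ± 0.08, adjusted p = 0.0373) and not in LT-HSC (0.08 ± 0.08). The MPP call was lost without KO MPP 1 (0.0718) or 3 (0.207) or WT MPP 1 (0.143) or 2 (0.111), and with total counts (0.0701), a loess offset (0.0998) or the covariate (0.0567). Between populations it was called in KO (0.18 ± 0.08, adjusted p = 0.0429), a call lost without KO LT-HSC 1 (0.0906) or 3 (0.159) or KO MPP 1 (0.0756) or 3 (0.218), and with total counts (0.052), a loess offset (0.0796) or the covariate (0.0531). It was not called in WT (0.01 ± 0.08).

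At Runx3 the distal start (chr4:135120235-135120695) had the highest mean level of all 245 regions. It held 72.7, 72.7 and 61.7 CPM in KO MPP, 79.8, 88.8 and 78.7 CPM in WT MPP, 73.7, 72.7 and 68.6 CPM in KO LT-HSC and 74.1, 77 and 75.4 CPM in WT LT-HSC. KO libraries were all below WT libraries in both populations, in LT-HSC by a narrow margin. The difference was called in MPP (-0.26 ± 0.06, adjusted p = 0.00802), a call lost without KO MPP 3 (0.102) or WT MPP 2 (0.0668), and not in LT-HSC (-0.07 ± 0.06, adjusted p = 0.538), where a loess offset gave a call (-0.18, adjusted p = 0.043). Between populations no call was made in KO (-0.06 ± 0.06, adjusted p = 0.432), but a loess offset gave one (-0.21, adjusted p = 0.000601). In WT the difference also missed the threshold (0.13 ± 0.06, adjusted p = 0.0636), but passed it with library number as a block within genotype (0.13, adjusted p = 0.0194) or over all groups (adjusted p = 0.0428), with limma-voom (adjusted p = 0.0243) and without WT MPP 3 (adjusted p = 0.0174), while a loess offset turned its sign (-0.07, adjusted p = 0.20). Whether this start differs between populations thus depends on the fit. The proximal start (chr4:135152075-135152634) held 19.5, 17.7 and 20.2 CPM in KO MPP, 15.7, 18.4 and 15.4 CPM in WT MPP, 13.3, 13.1 and 10.6 CPM in KO LT-HSC and 11.1, 11.2 and 11.2 CPM in WT LT-HSC. All MPP libraries were above all LT-HSC libraries (0.62 ± 0.09 in KO, adjusted p = 4.98e-07, and 0.57 ± 0.09 in WT, adjusted p = 1.55e-06), and KO and WT overlapped in both populations.

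The start of Runx2 was lower in MPP than in LT-HSC, and that of Cbfb was higher in MPP in WT. The RefSeq starts used here included 1 for Runx2, near the 5′ end of the gene and taken as its distal start. Its proximal promoter was thus not examined as a start. The Runx2 start (chr17:44814542-44814951), which lies in the body of the overlapping gene Supt3, held 5.03, 5.65 and 5.12 CPM in KO MPP, 5.51, 4.54 and 4.94 CPM in WT MPP, 6.41, 7.29 and 6.46 CPM in KO LT-HSC and 7.17, 6.97 and 6.31 CPM in WT LT-HSC. MPP were below LT-HSC without overlap (-0.35 ± 0.11 in KO, adjusted p = 0.00802, and -0.45 ± 0.11 in WT, adjusted p = 0.00056). The KO call was lost without KO LT-HSC 2 (0.0534), with a loess offset (0.0508) and with the covariate (0.12). The Cbfb start (chr8:105170301-105170763) held 42.8, 40.6 and 39.5 CPM in KO MPP, 45, 47.4 and 38.3 CPM in WT MPP, 38.5, 40.05 and 35.9 CPM in KO LT-HSC and 37.1, 40.5 and 33.3 CPM in WT LT-HSC. All groups overlapped with their counterparts. MPP over LT-HSC was called in WT (0.24 ± 0.07, adjusted p = 0.00468), a call lost without WT MPP 2 (0.0509) and with a loess offset (0.104), and with the covariate the difference was -0.002 (0.989). Neither start was called between KO and WT in either population.

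**Figure D1:**
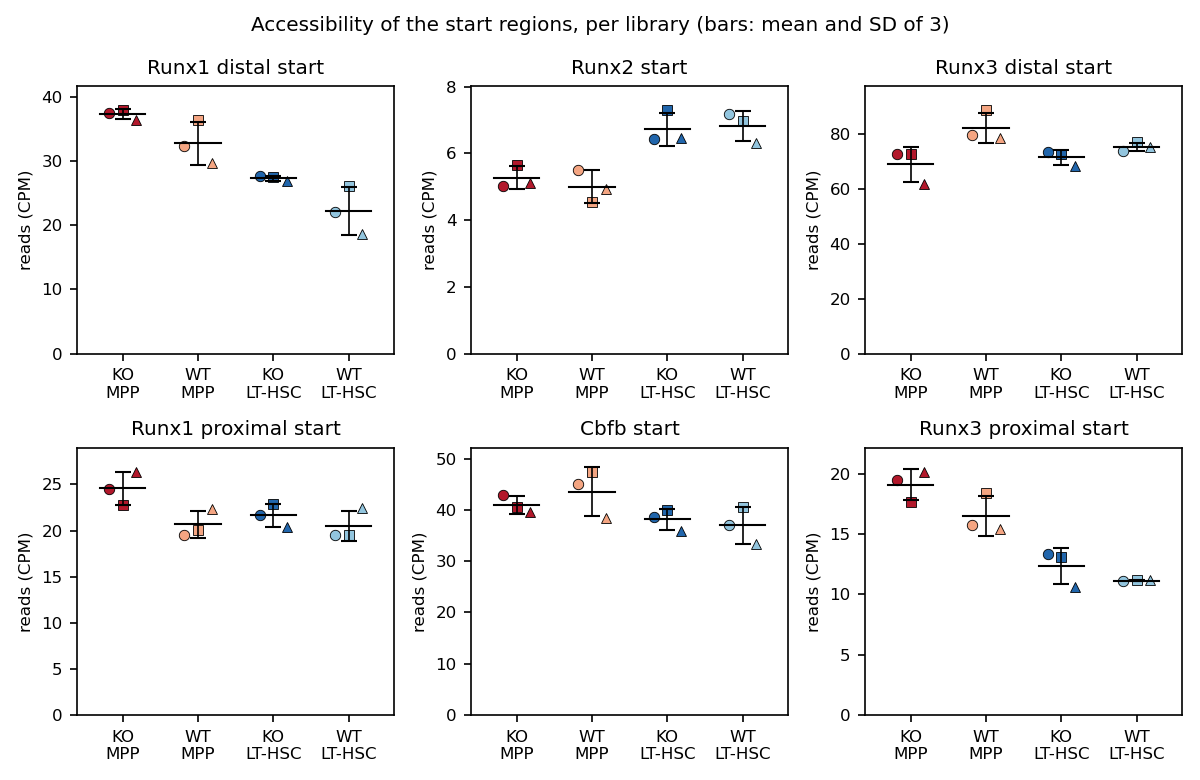
Accessibility (CPM, vertical axis from 0) of the 6 start regions in each library; circles, squares and triangles are libraries 1, 2 and 3 of a group, and bars are the mean and SD of 3. The Runx1 distal start had means of 37.3 CPM in KO MPP and 22.2 CPM in WT LT-HSC, its highest and lowest groups, while the Runx3 distal start was highest in WT MPP (82.4 CPM).

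The ratio of the distal to the proximal start within a library does not change with a single scaling factor per library. A loess offset or the gene-end covariate can act differently on each start. The ratio was added after the levels of the starts had been seen. At Runx1 its log2 value was 0.613, 0.732 and 0.466 in KO MPP, 0.725, 0.854 and 0.408 in WT MPP, 0.353, 0.265 and 0.399 in KO LT-HSC, and 0.173, 0.413 and -0.27 in WT LT-HSC. MPP were higher than LT-HSC in most pairings, and the third WT LT-HSC library was the one in which the proximal start exceeded the distal start. MPP exceeded LT-HSC by 0.41 on average (0.265 in KO and 0.56 in WT; exact 2-sided permutation test within genotype, p = 0.01, adjusted p = 0.0133 over 4 tests). The ratio itself was not fitted with the covariate. With it, the log2 fold change of MPP over LT-HSC in KO was 0.23 at the distal and 0.313 at the proximal start. In WT it was 0.352 and 0.136, so the higher ratio in MPP was not kept in KO. KO exceeded WT by 0.09 (-0.06 in MPP and 0.23 in LT-HSC; exact permutation p = 0.565).

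At Runx3 the log2 ratio was 1.901, 2.039 and 1.614 in KO MPP, 2.343, 2.268 and 2.355 in WT MPP, 2.468, 2.474 and 2.689 in KO LT-HSC, and 2.742, 2.781 and 2.755 in WT LT-HSC. No group overlapped with another: the ratio was lowest in KO MPP, then in WT MPP, then in KO LT-HSC, and highest in WT LT-HSC. MPP differed from LT-HSC by -0.565 (-0.69 in KO and -0.44 in WT), and KO from WT by -0.34 (-0.47 in MPP and -0.22 in LT-HSC). Each gave an exact permutation p of 0.005, the smallest that 400 arrangements allow, and an adjusted p of 0.01. The test treats libraries as exchangeable within a stratum, and the MPP values repeat the difference already called at the distal start. Without any 1 library the 3 differences past the threshold stayed past it in the same direction, and the Runx1 difference between KO and WT, not past it, was -0.007 without WT LT-HSC 3.

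**Figure D2:**
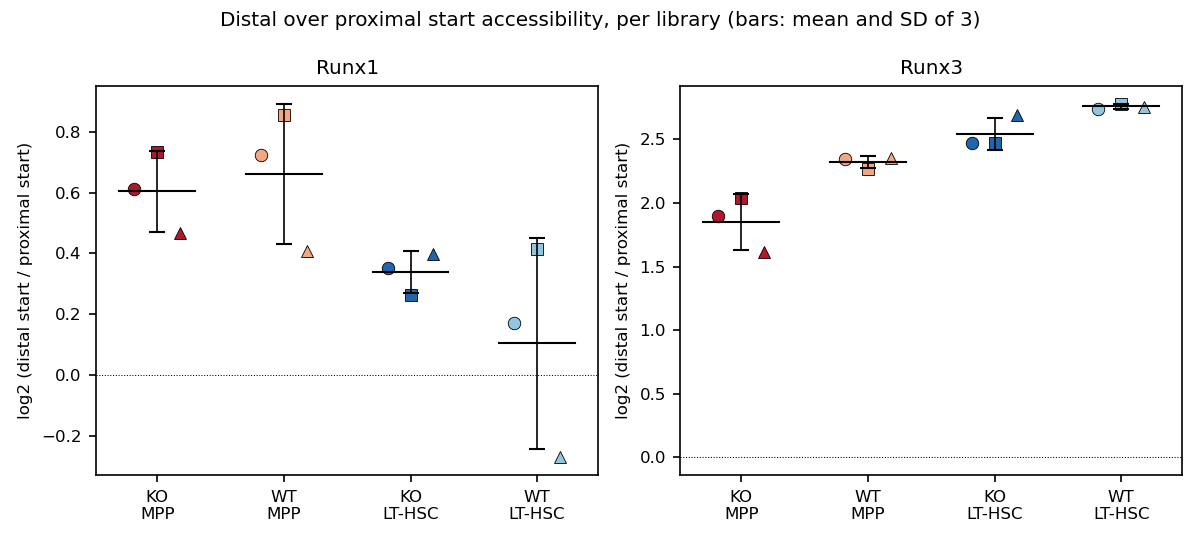
Log2 ratio of distal to proximal start accessibility of Runx1 and Runx3 in each library (circles, squares and triangles are libraries 1, 2 and 3, bars the mean and SD of 3, the dotted line equal accessibility; the vertical scales differ). For Runx3 the group means were 1.85 in KO MPP, 2.32 in WT MPP, 2.54 in KO LT-HSC and 2.76 in WT LT-HSC, with no overlap between groups.

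MPP were then compared with LT-HSC over all 245 regions, to describe how the loci differ between stem cells and their early progeny. In KO, 153 regions (62.4%) were called, 106 higher and 47 lower in MPP, against 67.7% of all tested regions (33.3% higher and 34.4% lower). In WT, 156 (63.7%) were called, 103 higher and 53 lower, against 69.8% (34.6% higher and 35.2% lower). The share called was thus near that of the whole table, while the calls were more often higher in MPP than the calls of the whole table were. In both genotypes 135 regions were called in the same direction (88.2% of the calls in KO and 86.5% of those in WT), 94 of them higher, and 0 in opposite directions. Over all tested regions, 112609 (60.4%) were called the same way in both, out of 126152 called in KO and 130002 called in WT. Calls at the 4 genes were thus shared between genotypes about as often as calls over all tested regions. A called rise of at least 2-fold in MPP was found at 54 regions in KO (22%, against 18.5% of all tested regions) and at 56 in WT (22.9%, against 17.9%). A called fall of that size was found at 11 regions in KO (4.49%, against 18.3%) and at 20 in WT (8.16%, against 18.6%). By gene, 41 of 113 Runx1 regions were higher and 19 lower in KO, and 40 higher and 21 lower in WT. At Runx2, 30 of 78 were higher and 22 lower in KO, and 31 higher and 24 lower in WT. At Runx3, 34 of 47 were higher and 4 lower in KO, and 30 higher and 5 lower in WT. The median log2 fold change was 0.62 in KO and 0.50 in WT at Runx3, 0.19 and 0.16 at Runx1, 0.17 and 0.07 at Runx2, and -0.17 and -0.51 at Cbfb, against 0.0 in KO and 0.006 in WT over all tested regions. MPP and LT-HSC libraries did not overlap at 169 regions in KO, against 71.1% of all tested regions, and at 160 in WT, against 70.5%. With the covariate the calls fell in number to 101 in KO and 103 in WT, against 45.7% and 46.2% of all tested regions. Regions of 5 T cell marker genes summed to 93.4 to 106 CPM in KO MPP, 94.4 to 104 CPM in WT MPP, 72.9 to 79 CPM in KO LT-HSC and 67.9 to 72.4 CPM in WT LT-HSC. Summed levels of the neutrophil and macrophage genes given below were also higher in every MPP library than in any LT-HSC library. Those of 4 endothelial genes were lower, with 306 to 316 CPM in KO MPP, 298 to 314 CPM in WT MPP, 358 to 368 CPM in KO LT-HSC and 340 to 355 CPM in WT LT-HSC. Those of 5 B cell genes were also lower, with 160 to 165 CPM in KO MPP, 165 to 168 CPM in WT MPP, 180 to 187 CPM in KO LT-HSC and 176 to 182 CPM in WT LT-HSC. Single genes did not all follow these sums. Every MPP library was above every LT-HSC library at 4 of 5 neutrophil, 3 of 5 macrophage and 2 of 5 B cell genes. The reverse held at 1 macrophage, 1 B cell and 2 of 4 endothelial genes. The part of these marker genes in the difference between populations was not tested.

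**Figure D3:**
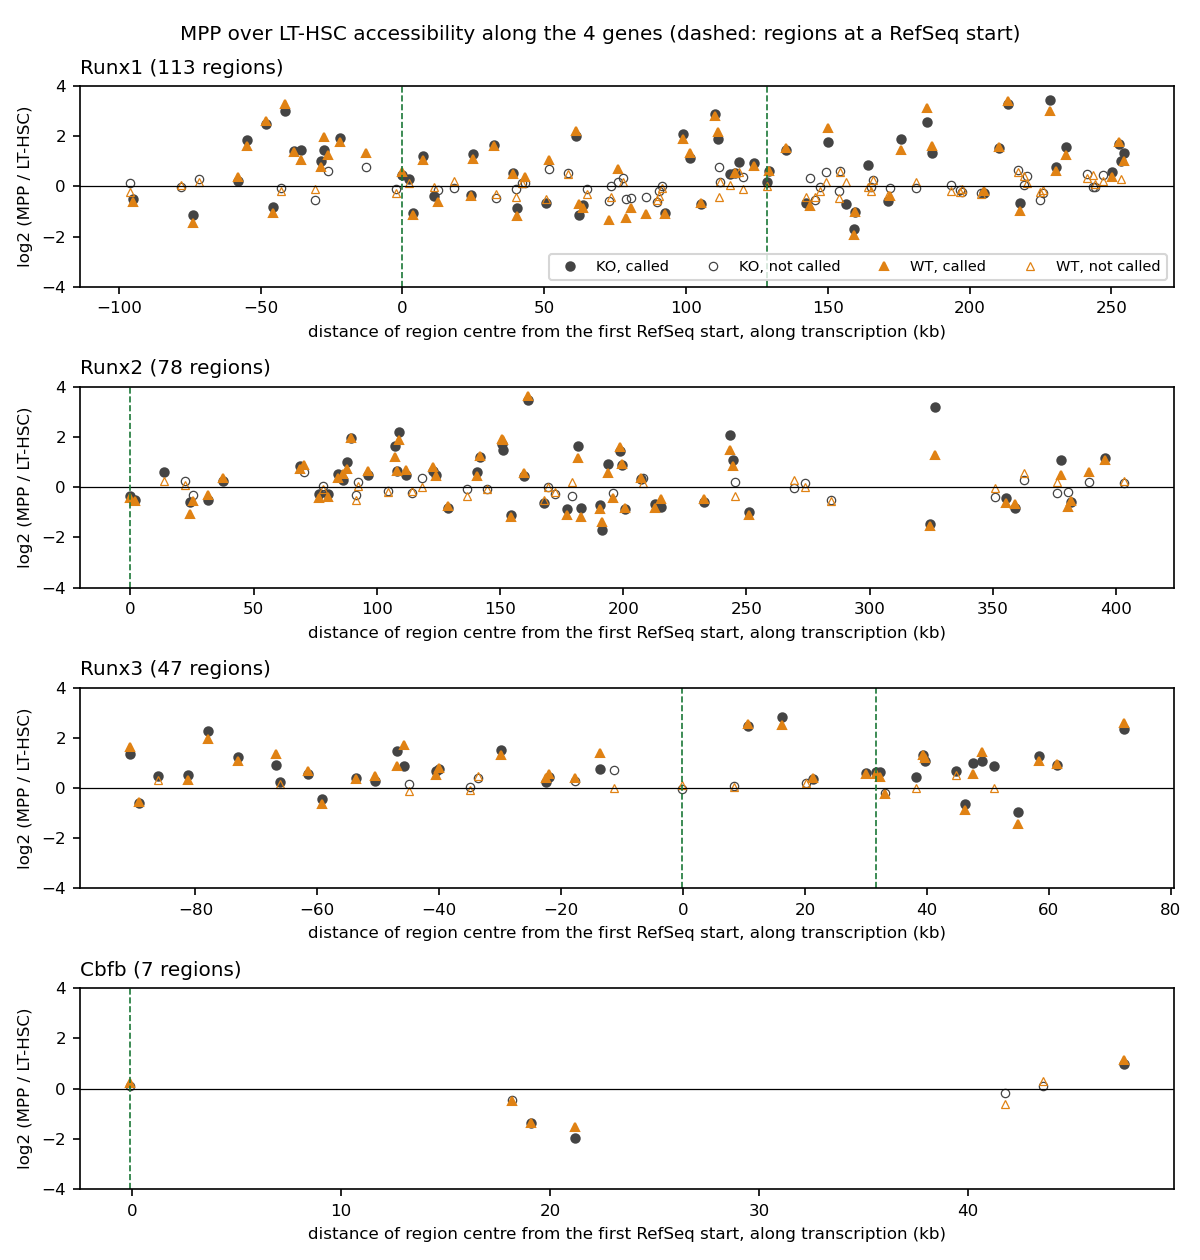
Log2 fold change of MPP over LT-HSC (vertical) of each region against the distance of its centre from the first RefSeq start along transcription (kb, horizontal), for KO (circles) and WT (triangles); filled symbols are called, and dashed lines mark regions at a RefSeq start. At Runx3, 34 filled circles and 30 filled triangles lie above 0, against 4 and 5 below it.

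At Runx1, regions are given by the distance of their centre from the distal start. The named rises lay upstream of the distal start, between the starts and past the proximal start. At +110.1 kb (chr16:92715470-92716392), between the starts, the level was 32.5, 35.6 and 35.1 CPM in KO MPP and 4.07, 4.78 and 5.48 CPM in KO LT-HSC, and 31.1, 27.6 and 32.5 CPM in WT MPP and 3.87, 4.05 and 5.04 CPM in WT LT-HSC. Every MPP library was at least 5 times any LT-HSC library (2.87 ± 0.10 in KO, adjusted p = 8.82e-21, and 2.81 ± 0.10 in WT, adjusted p = 4.67e-21). At -41.4 kb (chr16:92867309-92867729) the mean was 13.3 CPM in KO MPP and 1.66 CPM in KO LT-HSC, and 11.2 CPM in WT MPP and 1.17 CPM in WT LT-HSC (3.00 ± 0.14 and 3.28 ± 0.14). Past the proximal start, the log2 fold change was 2.57 ± 0.19 in KO and 3.11 ± 0.19 in WT at +184.8 kb, and 3.26 ± 0.26 in KO and 3.39 ± 0.26 in WT at +213.4 kb, where LT-HSC means were 0.392 CPM in KO and 0.295 CPM in WT.

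Other Runx1 regions were more open in stem cells. At +3.7 kb (chr16:92822076-92822593) the level was 31.5, 28.3 and 24.6 CPM in KO MPP and 58.3, 60.03 and 54.8 CPM in KO LT-HSC, and 24.1, 30.04 and 23.5 CPM in WT MPP and 55.4, 59.9 and 54.7 CPM in WT LT-HSC. MPP and LT-HSC libraries were far apart, and KO and WT overlapped (-1.04 ± 0.08 in KO and -1.13 ± 0.08 in WT). Further falls were found at +159.1 kb (-1.71 ± 0.18 in KO and -1.94 ± 0.18 in WT), -73.8 kb (-1.15 ± 0.14 and -1.44 ± 0.15), +62.2 kb (-1.13 ± 0.19 and -0.69 ± 0.17) and +40.4 kb (-0.85 ± 0.18 and -1.16 ± 0.19). With the covariate the WT call at +40.4 kb was lost (adjusted p = 0.0525). The region of Runx1 with the highest mean level, at +24.3 kb (chr16:92801546-92802031), lies in the window of the known +23 enhancer, an element of the first intron active in blood stem cells. It held 47.1, 44.7 and 42.1 CPM in KO MPP, 43.5, 48.5 and 43.5 CPM in WT MPP, 57.3, 57.6 and 55.1 CPM in KO LT-HSC and 60.5, 58.2 and 56.2 CPM in WT LT-HSC. All MPP libraries were below all LT-HSC libraries (-0.35 ± 0.06 in KO, adjusted p = 8.92e-06, and -0.37 ± 0.06 in WT, adjusted p = 2.97e-06), and KO and WT overlapped in both populations.

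The neighbour of the +24.3 kb region, at +25.0 kb (chr16:92800830-92801289), lies 256 bp away in the same window and went the other way. It held 19.4, 19.1 and 20.2 CPM in KO MPP, 16.4, 15.9 and 14.1 CPM in WT MPP, 7.76, 8.14 and 8.19 CPM in KO LT-HSC and 7.11, 7.44 and 7.44 CPM in WT LT-HSC. All MPP libraries were well above all LT-HSC libraries (1.29 ± 0.09 in KO, adjusted p = 2.91e-14, and 1.08 ± 0.09 in WT, adjusted p = 1.19e-12). Among 116 pairs of regions less than 2 kb apart at the 4 genes, other pairs with opposite calls in both genotypes included Runx1 +62.2 kb and +61.1 kb, 604 bp apart, where +61.1 kb rose (2.001 in KO and 2.22 in WT). At Runx2 they included +182.7 kb (-0.81 in KO and -1.17 in WT) and +181.5 kb (1.64 and 1.18), 169 bp apart. At Runx3 they included -89.3 kb (-0.59 ± 0.13 in KO and -0.55 ± 0.13 in WT) and -90.7 kb (1.34 ± 0.18 and 1.64 ± 0.18), 985 bp apart. Neighbours were named here after their values were seen. How often close pairs are called in opposite directions over the whole table was not counted, so these pairs are not shown to be particular to the 4 genes.

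At Runx2 the region with the highest mean level was not the start but one at +37.5 kb (chr17:44776913-44777321), also within Supt3, so that it cannot be given to one gene alone. It held 46.7, 46.7 and 47.2 CPM in KO MPP, 42, 42.7 and 38.8 CPM in WT MPP, 42.3, 38.2 and 38 CPM in KO LT-HSC and 32.5, 33.7 and 30.1 CPM in WT LT-HSC. MPP libraries were above LT-HSC libraries in each genotype (0.25 ± 0.06 in KO, adjusted p = 0.00113, and 0.36 ± 0.06 in WT, adjusted p = 9.85e-06), calls lost with the covariate (0.432 and 0.0746). Larger rises were found further into the gene, at +141.9 kb (chr17:44672232-44673200) with means of 33.8 CPM in KO MPP and 14.5 CPM in KO LT-HSC, and 33.4 CPM in WT MPP and 14.1 CPM in WT LT-HSC (1.221 ± 0.07 and 1.24 ± 0.07). The others named were +89.5 kb (1.95 ± 0.15 in KO and 1.98 ± 0.15 in WT), +150.6 kb (1.72 ± 0.12 and 1.90 ± 0.12) and +198.8 kb (1.44 ± 0.12 and 1.59 ± 0.12). Falls included +154.3 kb (-1.13 ± 0.17 in KO and -1.20 ± 0.17 in WT) and +200.5 kb (chr17:44613939-44614407), with means of 13.8 CPM in KO MPP and 24.8 CPM in KO LT-HSC, and 11.8 CPM in WT MPP and 21.2 CPM in WT LT-HSC (-0.85 ± 0.09 and -0.84 ± 0.09). In KO, +128.9 kb (-0.82 ± 0.11) and the downstream region at +358.8 kb (-0.82 ± 0.09) also fell, and in WT +190.5 kb (-0.89 ± 0.17), the last lost with the covariate (0.111).

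At Runx3 rises were called upstream, in the body and downstream. Of 25 upstream regions, 18 were higher and 2 lower in KO and 17 higher and 2 lower in WT. Of 19 in the body, 13 were higher and 2 lower in KO and 10 higher and 3 lower in WT, and all 3 downstream regions were higher in both. Downstream at +72.4 kb (chr4:135192793-135193252) the level was 34.3, 32.3 and 27.3 CPM in KO MPP and 6.08, 6.44 and 5.79 CPM in KO LT-HSC, and 35.2, 37.5 and 41.1 CPM in WT MPP and 5.68, 5.59 and 7.73 CPM in WT LT-HSC. Every MPP library was more than 3 times any LT-HSC library (2.35 ± 0.10 in KO, adjusted p = 1.47e-18, and 2.58 ± 0.10 in WT, adjusted p = 4.23e-20). Between the starts, +10.7 kb rose by a log2 fold change of 2.48 ± 0.24 in KO and 2.54 ± 0.21 in WT, with LT-HSC means of 0.639 CPM in KO and 0.725 CPM in WT. Upstream, -77.9 kb rose by 2.27 ± 0.20 and 1.97 ± 0.18. The falls were at +54.9 kb (-0.98 ± 0.17 in KO and -1.42 ± 0.16 in WT), +46.2 kb (-0.65 ± 0.16 and -0.90 ± 0.16), -89.3 kb and -59.2 kb (-0.43 ± 0.18 and -0.64 ± 0.18). The KO call at -59.2 kb was lost without KO LT-HSC 2 (0.215) or 3 (0.0638) or KO MPP 1 (0.0956) or 3 (0.0567), with a loess offset (0.105) and with DESeq2 (0.0587). With the covariate its difference was 0.06 in KO (0.898) and -0.16 in WT (0.707), neither called, and the KO call at +46.2 kb was lost (0.17).

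Of the 7 regions of Cbfb, 3 were called in the same direction in both genotypes, with 3 calls in KO and 5 in WT. Of all tested regions 60.4% were called the same way in both, 67.7% were called in KO and 69.8% in WT. At the end of the gene, +47.5 kb (chr8:105217924-105218339) had means of 4.39 CPM in KO MPP and 2.25 CPM in KO LT-HSC, and 3.87 CPM in WT MPP and 1.75 CPM in WT LT-HSC (0.97 ± 0.16 and 1.14 ± 0.16). Within the body, +21.2 kb (chr8:105191538-105192181) held 0.702, 0.642 and 0.593 CPM in KO MPP and 2.42, 2.76 and 2.32 CPM in KO LT-HSC, and 0.702, 0.584 and 0.575 CPM in WT MPP and 2.01, 1.74 and 1.65 CPM in WT LT-HSC (-1.96 ± 0.21 and -1.53 ± 0.21). It was lower in every MPP library than in any LT-HSC library, as was +19.1 kb, which was named for being shared (-1.35 ± 0.30 and -1.35 ± 0.29).

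KO was compared with WT in each population to describe what accompanies the loss of Phf6, which encodes a chromatin-associated protein with PHD-like fingers. In MPP 18 of the 245 regions (7.35%) were called, 15 higher and 3 lower in KO, against 8.71% of all tested regions (5.12% higher and 3.59% lower). In LT-HSC 9 (3.67%) were called, 8 higher and 1 lower, against 4.74% (3.27% higher and 1.47% lower). Both shares were close to those of the whole table, so the number of calls says nothing particular about these genes. At Runx1, 7 regions were higher and 0 lower in MPP, and 3 higher and 1 lower in LT-HSC. At Runx2, 8 were higher and 0 lower in MPP, and 4 higher and 0 lower in LT-HSC. At Runx3, 0 were higher and 3 lower in MPP, and 1 was higher and 0 lower in LT-HSC. The median log2 fold change was 0.17 in MPP and 0.08 in LT-HSC at Runx1, and 0.14 and 0.11 at Runx2, against -0.01 and -0.001 over all tested regions. At Runx3 it was 0.015 and -0.032, and at Cbfb 0.045 and 0.047, and with total counts the MPP median of Runx3 (-0.014) and the LT-HSC median of Cbfb (-0.01) had the opposite sign. With total counts the LT-HSC calls split into 3 higher and 2 lower, and with a loess offset into 4 higher and 2 lower. Of the LT-HSC calls of the whole table, 45.2% and 57.7% were higher in these fits. With the covariate 5 calls were left in MPP and 3 in LT-HSC, against 3.01% and 0.989% of all tested regions. The whole table thus lost calls too. At Cbfb, edgeR and limma-voom called 0 of 7 regions in either population, and DESeq2 0 of the 3 in MPP and 0 of the 2 in LT-HSC that it gave an adjusted p. At an unadjusted p under 0.05 edgeR, limma-voom and DESeq2 each gave 0 in MPP and 1 in LT-HSC. KO and WT libraries did not overlap at 72 regions in MPP, against 28% of all tested regions, and at 43 in LT-HSC, against 24.2%. Regions of marker genes also moved with genotype, those of the sorted populations among them. For the 10 LT-HSC genes the sum was 693 to 704 CPM in KO MPP and 655 to 692 CPM in WT MPP. In LT-HSC it was 1110 to 1120 CPM in KO and 1030 to 1050 CPM in WT. For the 8 MPP genes it was 763 to 787 CPM in KO MPP and 750 to 761 CPM in WT MPP. In LT-HSC it was 453 to 457 CPM in KO and 425 to 433 CPM in WT. Both sums over all regions were higher in KO in each population. At the 10 start regions of the MPP genes alone the sum was lower in KO. It was 123 to 129 CPM in KO MPP and 138 to 141 CPM in WT MPP, and 70.3 to 75.3 CPM in KO LT-HSC and 75.6 to 79.8 CPM in WT LT-HSC. At the 8 start regions of the LT-HSC genes it was higher in KO in each population. All 5 erythroid marker genes had regions, whose summed level was 123 to 127 CPM in KO MPP, 107 to 113 CPM in WT MPP, 134 to 139 CPM in KO LT-HSC and 121 to 127 CPM in WT LT-HSC, higher in KO in each population. That of the 5 neutrophil genes was 90.5 to 95.4 CPM in KO MPP, 100 to 107 CPM in WT MPP, 65.2 to 67.4 CPM in KO LT-HSC and 70.7 to 71.9 CPM in WT LT-HSC, and that of the 5 macrophage genes 92.4 to 94.9 CPM in KO MPP, 104 to 108 CPM in WT MPP, 64.4 to 69.7 CPM in KO LT-HSC and 73.3 to 77.3 CPM in WT LT-HSC, both lower in KO in each population. Their part in these results was not tested.

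**Figure D4:**
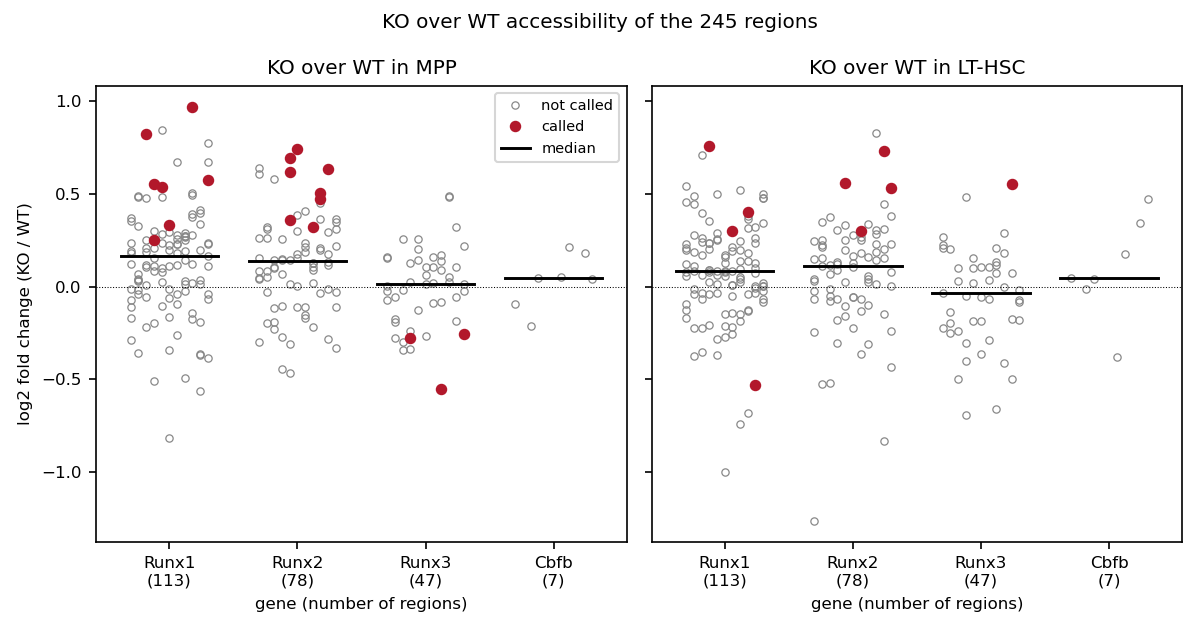
Log2 fold change of KO over WT (vertical) of each region by gene, in MPP (left) and LT-HSC (right); filled symbols are called, horizontal bars are medians, and sideways positions within a gene have no meaning. Medians were 0.17 at Runx1 and 0.14 at Runx2 in MPP, and the 3 calls at Runx3 in MPP lie below 0.

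The regions called in both populations were Runx1 +101.4 kb and Runx2 +1.7 kb (11.1% of the MPP calls and 22.2% of the LT-HSC calls), both higher in KO. Over all tested regions, 3603 (1.93%) were called the same way in both, out of 16230 called in MPP and 8834 called in LT-HSC. Calls at the 4 genes were thus shared between populations less often than calls over all tested regions. This difference rests on 2 shared regions and was not tested. Runx1 +101.4 kb (chr16:92724482-92724944), between the starts, held 6.16, 6.74 and 7.68 CPM in KO MPP, 4.89, 4.11 and 5.18 CPM in WT MPP, 2.89, 3.04 and 3.56 CPM in KO LT-HSC and 1.92, 1.49 and 2.14 CPM in WT LT-HSC. KO was above WT without overlap in both populations (0.56 ± 0.13 in MPP, adjusted p = 0.00551, and 0.76 ± 0.16 in LT-HSC, adjusted p = 0.00598). The MPP call was lost without KO MPP 3 (0.0616). The LT-HSC call was the one of 9 kept without any 1 library and under every alternative run. Runx2 +1.7 kb (chr17:44812743-44813165), close to the start and within Supt3, held 3.78, 3.36 and 3.05 CPM in KO MPP, 2.05, 2.31 and 2.20 CPM in WT MPP, 4.62, 5.27 and 4.32 CPM in KO LT-HSC and 3.61, 3.09 and 2.95 CPM in WT LT-HSC. KO was again above WT without overlap (0.62 ± 0.14 in MPP, adjusted p = 0.00662, and 0.56 ± 0.14 in LT-HSC, adjusted p = 0.0135). The MPP call was the one of 18 kept under every alternative run, and the LT-HSC call was lost without KO LT-HSC 2 (0.0943) or WT LT-HSC 2 (0.0501) and with the covariate (0.0739).

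In MPP 3 more Runx1 regions were named by their low p, all higher in KO without overlap. The region at +25.0 kb, with levels as above, differed by 0.33 ± 0.08 (adjusted p = 0.00849), lost without KO MPP 3 (0.0513) and with the covariate (0.213). At +123.9 kb (chr16:92701954-92702355), before the proximal start, the level was 3.08, 3.33 and 3.48 CPM in KO and 2.33, 2.44 and 1.79 CPM in WT (0.58 ± 0.16, adjusted p = 0.0226), lost without KO MPP 2 (0.0841) or 3 (0.103) or WT MPP 3 (0.0895) and with the covariate (0.25). At +118.8 kb (chr16:92707120-92707529) it was 1.33, 1.31 and 2.18 CPM in KO and 1.1, 0.792 and 0.846 CPM in WT (0.82 ± 0.24, adjusted p = 0.0277), with the third KO library well above the others, and was lost without KO MPP 3 (0.284) or WT MPP 2 (0.115) or 3 (0.0623) and with the covariate (0.256).

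At Runx2, KO MPP was higher at 3 more named regions, again without overlap. At +195.7 kb (chr17:44618712-44619127) the level was 3.20, 3.04 and 3.32 CPM in KO and 1.95, 2.33 and 1.76 CPM in WT (0.64 ± 0.15, adjusted p = 0.00568). This call was kept without any 1 library and lost with the covariate (0.0672). At +80.2 kb (chr17:44733933-44734940) it was 12.6, 12.8 and 14 CPM in KO and 10.4, 10.1 and 10.2 CPM in WT (0.36 ± 0.08, adjusted p = 0.00619), lost without KO MPP 3 (0.0548) and with the covariate (0.0546). At +182.7 kb (chr17:44631204-44632713) it was 4.13, 3.51 and 5.31 CPM in KO and 2.53, 2.38 and 3.21 CPM in WT (0.69 ± 0.17, adjusted p = 0.00828), lost without KO MPP 3 (0.113) and with the covariate (0.0646). The MPP calls at the 4 genes numbered 2 without KO MPP 3, 11 without KO MPP 2 and 10 without WT MPP 2. Of all tested regions, 3.45%, 3.61% and 5.22% were called in these runs, against 8.71% with all libraries.

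The 3 MPP calls at Runx3 were lower in KO, at the distal start (above), at -13.7 kb and at +72.4 kb. Without WT MPP 2 the calls at Runx3 were 1 higher and 0 lower, without WT MPP 3 they were 1 higher and 2 lower, and without KO MPP 3 there were 0. At -13.7 kb (chr4:135106731-135107187) the level was 2.65, 3.18 and 2.94 CPM in KO and 3.26, 4.17 and 5.72 CPM in WT (-0.55 ± 0.17, adjusted p = 0.0382). The groups did not overlap, but WT libraries were widely spread. The call was lost without KO MPP 1 (0.109), 2 (0.079) or 3 (0.117) or WT MPP 2 (0.0663) or 3 (0.237), with limma-voom (0.0525), DESeq2 (0.0593) and the covariate (0.779). At +72.4 kb, with levels as above and no overlap, the difference was -0.28 ± 0.09 (adjusted p = 0.0435), lost without KO MPP 2 (0.097) or 3 (0.283) or WT MPP 2 (0.0772) or 3 (0.158), with DESeq2 (0.0645) and with the covariate (0.495).

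In LT-HSC the strongest region of Runx2, at +37.5 kb with levels as above, was higher in KO without overlap (0.30 ± 0.06, adjusted p = 0.00626), lost without KO LT-HSC 1 (0.059) and with the covariate (0.14). In MPP its difference was 0.19 ± 0.06 (adjusted p = 0.0598), past the threshold with limma-voom (0.0381) and a replicate block (0.037). At +96.4 kb (chr17:44718010-44718510) the level was 2.67, 3.29 and 2.72 CPM in KO and 2.29, 1.85 and 1.85 CPM in WT (0.53 ± 0.15, adjusted p = 0.0391), and at +376.0 kb, past the gene (chr17:44438409-44438915), 1.98, 1.66 and 1.56 CPM in KO and 1.18, 1.01 and 0.984 CPM in WT (0.73 ± 0.20, adjusted p = 0.0331). KO was above WT without overlap at both. The call at +96.4 kb was lost without KO LT-HSC 1 (0.0587), 2 (0.193) or 3 (0.0631) or WT LT-HSC 2 (0.12) or 3 (0.105), with DESeq2 (0.0501), a loess offset (0.0679) and a fit of the compared groups alone (0.0789). The call at +376.0 kb was lost without KO LT-HSC 1 (0.16) or 2 (0.0739) or WT LT-HSC 1 (0.0514), 2 (0.0907) or 3 (0.0864), and both with total counts (0.075 and 0.0544) and the covariate (0.144 and 0.361).

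At Runx1 +18.1 kb (chr16:92807720-92808195) the LT-HSC level was 7.51, 6.40 and 6.90 CPM in KO and 5.28, 5.37 and 5.15 CPM in WT (0.40 ± 0.11, adjusted p = 0.0251), higher in KO without overlap. The call was lost without KO LT-HSC 1 (0.136) or 3 (0.0574) or WT LT-HSC 1 (0.0655), 2 (0.0531) or 3 (0.0578), with total counts (0.0635), a loess offset (0.0656) and the covariate (0.125). The one fall was at Runx1 +172.0 kb (chr16:92653847-92654289), past the proximal start, with 4.76, 5.34 and 5.34 CPM in KO and 6.60, 8.09 and 7.53 CPM in WT (-0.53 ± 0.13, adjusted p = 0.0188). KO was below WT without overlap, and the call was lost without KO LT-HSC 1 (0.1) or 2 (0.0582) or WT LT-HSC 2 (0.0824). Upstream of Runx3, -66.8 kb (chr4:135053580-135054020) held 3.08, 4.67 and 3.34 CPM in KO and 2.44, 2.73 and 2.34 CPM in WT (0.56 ± 0.16, adjusted p = 0.0371), with the second KO library well above the others. It was lost without KO LT-HSC 2 (0.291) or 3 (0.0529) or WT LT-HSC 1 (0.101), 2 (0.0512) or 3 (0.095), with limma-voom (0.0686), total counts (0.0679), a loess offset (0.0734), the compared groups alone (0.056) or the covariate (0.137). The LT-HSC calls at the 4 genes numbered 3 without KO LT-HSC 1 or 2 or WT LT-HSC 2, and 5 without KO LT-HSC 3 or WT LT-HSC 1 or 3. Of all tested regions, 1.82% to 3.53% were called in these runs, against 4.74% with all libraries.

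**Figure D5:**
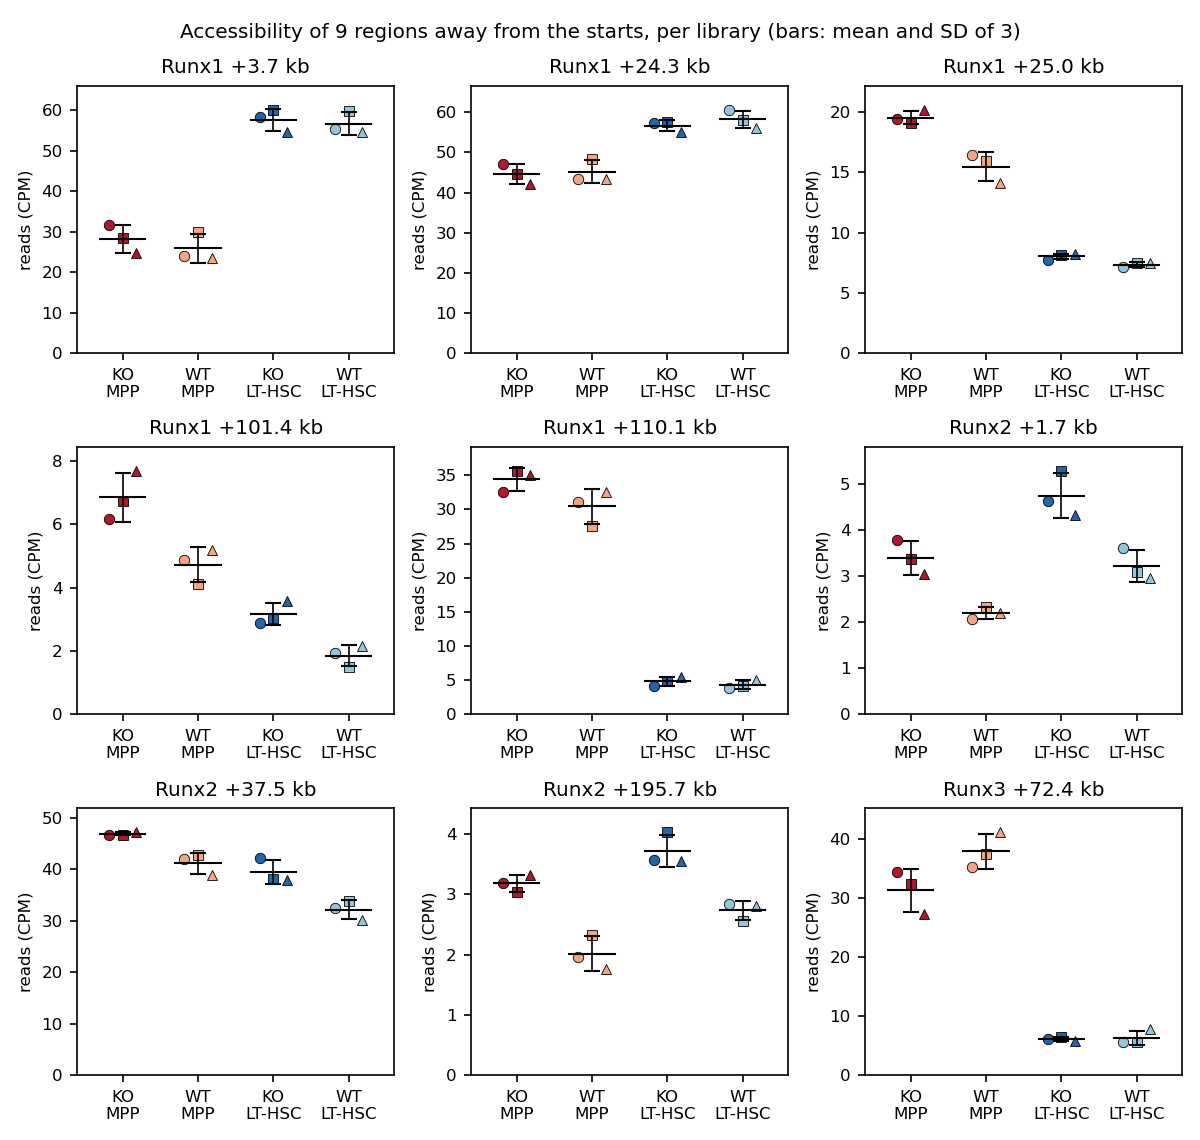
Accessibility (CPM, vertical axis from 0) of 9 named regions away from the starts in each library; circles, squares and triangles are libraries 1, 2 and 3 of a group, and bars are the mean and SD of 3. Runx1 +24.3 kb was lower in MPP (44.6 CPM in KO and 45.1 CPM in WT) than in LT-HSC (56.7 and 58.3 CPM), its neighbour at +25.0 kb higher, and Runx1 +101.4 kb and Runx2 +1.7 kb were higher in KO than in WT in both populations.

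Whether the genotype difference itself differed between populations was tested as an interaction, the KO effect in LT-HSC minus that in MPP. edgeR called 0 of the 245 regions, against 0.00805% of all tested regions, limma-voom 0, and DESeq2 0 of the 73 it gave an adjusted p. At an unadjusted p under 0.05 they gave 12, 11 and 6. The lowest adjusted p by edgeR was 0.435, at Runx3 -45.8 kb, which held 3.31, 2.81 and 2.86 CPM in KO MPP, 3.61, 3.48 and 4.26 CPM in WT MPP, 1.57, 1.52 and 1.78 CPM in KO LT-HSC and 0.946, 1.07 and 1.45 CPM in WT LT-HSC. KO was below WT in MPP and above WT in LT-HSC there, without overlap in either. A genotype call made in one population alone is thus not shown to differ from the other population.

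Summed over all regions of a gene and divided by their length, Runx3 was the most accessible, with 18.3 ± 0.69 CPM per kb in KO MPP, 18.8 ± 1.12 in WT MPP, 13.5 ± 0.27 in KO LT-HSC and 13.4 ± 0.19 in WT LT-HSC (SD, n = 3 each). Cbfb followed with 13.2 ± 0.45, 13.8 ± 1.24, 12.7 ± 0.76 and 12 ± 1.21 CPM per kb in the same groups, which differed by about the spread between libraries. Runx2 held 9.91 ± 0.09, 9.14 ± 0.05, 9.19 ± 0.20 and 8.35 ± 0.19 CPM per kb, and Runx1 9.55 ± 0.21, 8.85 ± 0.25, 7.94 ± 0.03 and 7.58 ± 0.11 CPM per kb. At Runx1 and Runx2 KO was above WT in each population without overlap under TMM scaling. The share of all genes whose sums do the same was not counted, and single regions did so at 28% in MPP and 24.2% in LT-HSC. TMM factors were 0.9818 to 0.9908 in KO LT-HSC and 1.0215 to 1.0359 in WT LT-HSC, so the LT-HSC differences depend on this scaling. At Runx1 the summed level was 442.4 to 445.9 CPM in KO LT-HSC. It was 429.0 CPM in WT LT-HSC 3, whose factor was 1.0359. Without the factors this WT library lies above every KO LT-HSC library, so the gap at Runx1 is not kept. At Runx2 the LT-HSC groups stay apart without the factors. At Runx2 the WT MPP and KO LT-HSC libraries overlapped. The gene sums whose profile over the 12 libraries was most like that of Runx1, by root mean square difference of centred log2 CPM among 10848 genes, were Rbbp7 (0.0268), Tor1aip2 and Ctr9 (0.0278 each). For Runx2 they were Supt3 (0.0208), which shares 8 regions with it, Wasf2 (0.0236) and Epha7 (0.0253), and for Runx3 Nod2 (0.0249), Ggta1 (0.0282) and Ikzf1 (0.0304). For Cbfb they were Anapc16 (0.052), Sgsh (0.055) and Gmfb (0.0551), and the median over all genes was 0.157 to 0.249.

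Genes that act with RUNX proteins, or are known RUNX targets in blood, were counted in the same fit. Per list and population, the 5 genes with the lowest p are named, each by its region of lowest p, so they are the extremes of the list. The first list held 32 partners and modifiers with 690 regions. Of these genes, 21 had a called region in MPP and 18 in LT-HSC. In MPP 45 were higher and 18 lower in KO (6.52% and 2.61%, beside 5.12% and 3.59% of all tested regions), and in LT-HSC 25 were higher and 4 lower (3.62% and 0.58%, beside 3.27% and 1.47%), with median log2 fold changes of 0.08 and 0.04. Tle3, a Groucho-type corepressor, had a region (chr9:61278279-61278681) that was higher in KO in both populations, with 9.16, 11.4 and 11.3 CPM in KO and 7.14, 6.94 and 7.75 CPM in WT (0.56 ± 0.10, adjusted p = 0.00110) in MPP, and 8.31, 9.09 and 8.73 CPM in KO and 5.54, 5.67 and 7.09 CPM in WT (0.51 ± 0.11, adjusted p = 0.00678) in LT-HSC. In its relative Tle4 a region (chr19:14485165-14485572) was lower in KO MPP, with 8.62, 10.6 and 8.25 CPM in KO and 12.4, 13.2 and 14.5 CPM in WT (-0.54 ± 0.09, adjusted p = 0.000469). Higher in KO MPP were regions of Hipk2, a kinase that phosphorylates RUNX1 (0.68 ± 0.12, adjusted p = 0.000592), of the cell cycle kinase gene Cdk6 (0.65 ± 0.12, adjusted p = 0.000693) and of Runx1t1, the ETO fusion partner in leukaemia (0.50 ± 0.10, adjusted p = 0.00143). In LT-HSC, regions of Wwtr1 (0.56 ± 0.09, adjusted p = 0.000338), the corepressor gene Sin3a (0.31 ± 0.06, adjusted p = 0.00130), the histone methyltransferase gene Kmt2a (0.40 ± 0.07, adjusted p = 0.00159) and the kinase gene Pim1 (0.43 ± 0.09, adjusted p = 0.00552) were higher in KO. All of these were kept without any 1 library, and Sin3a (0.0555), Kmt2a (0.0737) and Pim1 (0.124) were lost with the gene-end covariate. The calls of the list in MPP numbered 25 without KO MPP 3, 26 without KO MPP 2, 36 without WT MPP 2 and 40 without WT MPP 1, and in LT-HSC 10 to 16 without any 1 library but WT LT-HSC 3. With total counts the calls split into 34 higher and 22 lower in MPP and 11 higher and 7 lower in LT-HSC, with a loess offset the LT-HSC calls split into 19 and 7, and with the covariate the calls numbered 25 in MPP and 3 in LT-HSC. Of all tested regions, 3.45% to 5.9% were called in MPP and 1.82% to 2.83% in LT-HSC in these runs without 1 library. With the covariate 3.01% and 0.989% were called. The list thus lost calls along with the whole table.

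The second list held 30 known targets with 429 regions, and 19 of these genes had a called region in MPP and 16 in LT-HSC. In MPP 44 were higher and 4 lower in KO (10.3% and 0.932%, beside 5.12% and 3.59% of all tested regions), and in LT-HSC 20 were higher and 4 lower (4.66% and 0.932%, beside 3.27% and 1.47%), with median log2 fold changes of 0.08 and 0.05. Gata2, a transcription factor gene of stem and progenitor cells, had a region (chr6:88203003-88203461) that was higher in KO in both populations, with 34.2, 34.4 and 32.3 CPM in KO and 21.9, 21.6 and 24.2 CPM in WT (0.58 ± 0.07, adjusted p = 4.29e-06) in MPP, and 55.1, 55.1 and 59.3 CPM in KO and 39.6, 42.1 and 38.5 CPM in WT (0.49 ± 0.06, adjusted p = 3.39e-05) in LT-HSC. KO was far above WT without overlap, and both calls were kept under every alternative run. Regions of Hhex, a homeobox gene of early progenitors, were higher in KO MPP (chr19:37435466-37435979; 0.39 ± 0.06, adjusted p = 6.93e-05) and in KO LT-HSC (chr19:37436441-37436879; 0.62 ± 0.10, adjusted p = 0.000358). Regions of the repressor gene Gfi1b were higher in KO MPP (0.49 ± 0.08, adjusted p = 0.000198) and KO LT-HSC (0.39 ± 0.08, adjusted p = 0.00441), the second lost without KO LT-HSC 3 (0.0505). In KO MPP, regions of its relative Gfi1 (0.67 ± 0.12, adjusted p = 0.000772) and of the myeloid factor gene Cebpa (0.55 ± 0.12, adjusted p = 0.00318) were higher. In KO LT-HSC so were regions of the B cell factor gene Ebf1 (0.84 ± 0.16, adjusted p = 0.00253) and of Zbtb7b, a helper T cell factor (0.29 ± 0.07, adjusted p = 0.00821). With the covariate the calls at Cebpa (0.0633) and Zbtb7b (0.209) were lost. The calls of the list in MPP numbered 20 without KO MPP 3, 22 without KO MPP 2 and 31 without WT MPP 1 or 2, and in LT-HSC 11 to 14 without any 1 library but WT LT-HSC 3. With the covariate they numbered 21 in MPP and 10 in LT-HSC, and with a loess offset the LT-HSC calls split into 15 higher and 1 lower. The shares of all tested regions without 1 library and with the covariate are those given for the first list.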

How the data were processed

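ATAC-seq reads were counted in accessible regions by the authors, and the deposited table holds raw counts per region for 12 libraries. Per the submitters' processing notes, the build was GRCm38 and the tools named were Bowtie2, MACS2 2.1.1, DESeq2 1.22.1, featureCounts and cutadapt. Their settings are not given in the sources at hand. Per the labels, libraries were made with Nextera Tn5 and sequenced as paired reads of 75 nucleotides on a NextSeq 500.

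Regions were assigned to RefSeq gene bodies as described, and all 188262 regions entered one fit (edgeR 4.0.16 in R 4.3.3: TMM factors, filterByExpr, 1 mean per group over 12 libraries, quasi-likelihood F test, Benjamini-Hochberg over 186373 tested regions, threshold 0.05). CPM are counts scaled to 1000000 of the TMM-scaled library size with no prior count. SE is the log2 fold change over the square root of F. The fit was tested on simulated data. Alternatives used limma 3.58.1, DESeq2 1.42.0, other scalings and filters, and left out each library in turn. The biological coefficient of variation was 8.18%.

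Named regions per gene were those at RefSeq starts, the region of highest mean CPM, the strongest in the window 22 to 26 kb past the distal Runx1 start, up to 4 calls per KO over WT comparison by p (the lowest p where none was called), and up to 4 per direction between populations by fold change among regions above the median level of 1.83 CPM. Exceptions are stated. Genes, lists and rules were chosen with earlier results of these data known. Levels carry counting error and library spread, and p-values measure the spread between these libraries, which the labels tie to individual mice for LT-HSC only. Same-numbered WT MPP and WT LT-HSC libraries deviated together (r = 0.102, 0.131 and 0.157), by the data and not by the labels, so library number was also fitted as a block for MPP over LT-HSC.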

Additional observations from a re-analysis of the deposited data

How the results depend on the processing

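The KO over WT calls in LT-HSC (9) numbered 5 with total counts (3 higher, 2 lower), 3 with a gene-end covariate, 2 at an adjusted p under 0.01 and 3 to 5 without 1 library. Those in MPP (18) numbered 5 with the covariate, 11 with DESeq2, 7 at an adjusted p under 0.01 and 2 to 15 without 1 library. The MPP over LT-HSC calls numbered 101 in KO and 103 in WT with the covariate, and 140 to 144 in KO and 144 to 159 in WT without 1 library. Over all tested regions KO over WT calls in LT-HSC fell from 4.74% to 3.81% with total counts and 0.989% with the covariate. Without 1 library they were 1.82% to 3.53%. In MPP they fell from 8.71% to 3.01% with the covariate and 3.45% to 7.58% without 1 library. DESeq2 called 9.72% of the regions in MPP that it gave an adjusted p. With the covariate MPP over LT-HSC calls were 45.7% in KO and 46.2% in WT. The cause of these changes was not tested. With the covariate the difference between MPP and LT-HSC changed sign at Runx3 -59.2 kb in KO (0.058, adjusted p = 0.898) and at the Cbfb start in WT (-0.002, adjusted p = 0.989).

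With a replicate block the calls numbered 20 in MPP and 9 in LT-HSC for KO over WT, 0 for the interaction, and 153 in KO and 161 in WT for MPP over LT-HSC. With the block within genotype, added after the pairing was checked, they were 154 in KO, 165 in WT and 0 for the interaction. Of all tested regions, the replicate block called 10.2% in MPP and 6.0% in LT-HSC for KO over WT. For MPP over LT-HSC it called 68.2% in KO and 70.3% in WT, and the block within genotype 69.3% and 71.6%. Among the named regions either block changed the population call of the Runx3 distal start in WT alone. Same-numbered KO and WT libraries did not deviate together (r from -0.039 to 0.051), and KO MPP and KO LT-HSC pairs had r of 0.077 to 0.082. Of the population calls, 121 of 153 in KO and 123 of 156 in WT were kept without any 1 library. Low regions are limited by depth: the lowest mean level at the 4 genes was 0.306 CPM.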
